A study of Homo sapiens with 20 samples.

Results

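A set of 10 long noncoding RNAs (lncRNAs) known for high levels or frequent study in cancer cells was followed through the m6A peak lists of a bladder cancer line and its cisplatin-resistant derivative: MALAT1, NEAT1, NORAD, OIP5-AS1, CYTOR, PVT1, GAS5, KCNQ1OT1, SNHG1 and MIR22HG. They are 10 of 62700 annotated genes and were chosen by name, with earlier results of these data known. A peak was counted for a gene when its summit, the base of strongest signal, lay in an annotated exon of that gene on hg38. By this rule 117 of 231465 peaks were member peaks, 54 from T24 and 63 from T24R2, and they fell in 15 of the 43676 regions that result when all lists are merged. Exonic peaks were found in 7 of the 10 genes and, for 6 of them, in all 10 libraries. Of all 18866 annotated lncRNA genes, 2791 (14.8%) had an exonic peak in any list and 689 in all 10 lists.

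The data are methylated RNA immunoprecipitation sequencing (MeRIP-seq) of RNA fragments bound by an antibody against N6-methyladenosine (m6A). T24 is an established human bladder cancer line. T24R2 was grown out of T24 under cisplatin, resists the drug and was kept in it. Both carried the label of wild-type genotype, both were collected at day 3 of culture, and each contributed 5 pull-down libraries with 5 input libraries, 20 samples in all. T24R2 is a single derived line, so what separates the lines cannot be told apart from what separates a selected culture from its parent. The labels do not say whether replicates were separate cultures, so p-values measure the spread between these samples only. The peak lists held 17203 to 22901 peaks in T24 and 22671 to 33120 in T24R2, the longest being that of T24R2 replicate 5. List length thus went largely with the line. Peak numbers, widths and percentiles were not corrected for it, except where lists of the same length are named. The 10 lists carried neither read counts nor strand. The level of each RNA and the depth of each library are therefore unknown, and the label of abundance could not be checked here. Of 14 urothelial marker genes 7 had an exonic peak. GATA3 and ELF3 had peaks in 5 of 5 T24 and 0 of 5 T24R2 libraries, and KRT7 and FOXA1 in all 10. KRT18 had peaks in 0 T24 and 2 T24R2 libraries, PPARG in 1 and 2, and UPK1A in 1 of each line. Of 4 leukocyte markers only CD14 had an exonic peak, and of 3 fibroblast and endothelial markers PECAM1 and CDH5 did. Their part in the results was not tested.

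m6A is set on nuclear RNA by the METTL3 and METTL14 complex, mostly at adenosines in a short consensus called DRACH, and is read by YTH-domain proteins. In lncRNAs the mark is best known from MALAT1, where it alters local RNA structure and protein binding. MALAT1 and NEAT1 are retained in the nucleus at speckles and paraspeckles, NORAD binds PUMILIO proteins in the cytoplasm, and GAS5, SNHG1 and MIR22HG are spliced hosts of small RNAs.

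The sequences around the recurrent summits are printed first because most summits fell at the same few positions in library after library. Each is 101 nt of hg38 on the transcribed strand, centred on the summit nearest the median of a site that had summits in at least 5 libraries, and DRACH matches are in capitals. DRACH was searched as A, G or T, then A or G, then A, then C, then A, C or T. PVT1 has a site of this kind too, which is described by position only.
MALAT1, chr11:65499185-65499285, plus strand: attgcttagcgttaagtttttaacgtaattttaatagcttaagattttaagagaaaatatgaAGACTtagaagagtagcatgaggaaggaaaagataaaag
MALAT1, chr11:65500373-65500473, plus strand: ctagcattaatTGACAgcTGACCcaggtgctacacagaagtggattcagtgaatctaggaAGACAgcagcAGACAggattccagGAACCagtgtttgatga
MALAT1, chr11:65502941-65503041, plus strand: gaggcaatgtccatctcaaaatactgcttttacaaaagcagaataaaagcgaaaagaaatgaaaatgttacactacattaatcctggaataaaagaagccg
NEAT1, chr11:65423070-65423170, plus strand: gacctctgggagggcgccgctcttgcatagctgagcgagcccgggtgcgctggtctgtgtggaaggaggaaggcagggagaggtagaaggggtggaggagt
NEAT1, chr11:65424487-65424587, plus strand: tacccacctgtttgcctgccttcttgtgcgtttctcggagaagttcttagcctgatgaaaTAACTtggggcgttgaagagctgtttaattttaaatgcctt
NORAD, chr20:36049955-36050055, minus strand: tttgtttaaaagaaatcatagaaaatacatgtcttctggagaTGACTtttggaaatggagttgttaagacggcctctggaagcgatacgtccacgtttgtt
NORAD, chr20:36050327-36050427, minus strand: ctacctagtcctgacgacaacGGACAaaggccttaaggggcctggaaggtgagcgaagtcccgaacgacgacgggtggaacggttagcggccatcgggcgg
OIP5-AS1, chr15:41298318-41298418, plus strand: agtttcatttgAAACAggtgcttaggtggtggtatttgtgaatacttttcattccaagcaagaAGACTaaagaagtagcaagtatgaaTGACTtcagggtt
CYTOR, chr2:87583277-87583377, plus strand: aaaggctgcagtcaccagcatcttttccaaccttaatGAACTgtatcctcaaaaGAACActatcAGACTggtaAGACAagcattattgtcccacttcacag
CYTOR, chr2:87584858-87584958, plus strand: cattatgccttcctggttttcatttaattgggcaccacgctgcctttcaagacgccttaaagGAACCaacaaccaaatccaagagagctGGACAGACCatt
MIR22HG, chr17:1712792-1712892, minus strand: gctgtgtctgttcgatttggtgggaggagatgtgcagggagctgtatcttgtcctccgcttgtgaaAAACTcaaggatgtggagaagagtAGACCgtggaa

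Chaining summits that lay within 100 nt of each other gave 24 summit sites in the 7 genes. A DRACH match lay within 50 nt of the summit for 105 of the 117 member peaks, 89.7%, beside 90.5% of 165758 exonic peaks of genes on 1 strand. On the opposite strand the share was 90.6% for the members and 71.6% for all exonic peaks. Counted by site, 21 of 24 had a sense match at no fewer than every other summit and 22 of 24 an antisense match. Within 25 nt the sense share was 69.7 ± 12.5% (SD, n = 10 libraries) for the members and 71.8 ± 1.28% for all exonic peaks, and the antisense share was 49.9 ± 17.7% and 46.5 ± 0.875%. The members were thus alike on both strands in the wide window and not in the narrow one. The stronger core GGAC was near 29.1 ± 14.5% of member summits and 48.0 ± 1.39% of all exonic summits. Sites that recur in several libraries enter these shares repeatedly, and a match is a description of the letters and not a mapped m6A base.

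The numbers of peaks showed a split among the members by gene. CYTOR, a cytoplasmic regulator of cell growth, averaged 2.9 exonic peaks per library, MALAT1 2.5, NEAT1 1.9, OIP5-AS1 and PVT1 1.3 each, NORAD 1 and MIR22HG 0.8. Among the 2791 lncRNA genes with any exonic peak, of 18866 annotated, CYTOR ranked 66, MALAT1 97 and NEAT1 210 by this mean. Leaving out XIST, the 5 other genes annotated as lncRNA with the highest means were MIR4435-2HG at 8.8, TTC28-AS1 at 7.4, ENSG00000242588 and XACT at 6.7 each and ENSG00000291159 at 6.2. TUG1, studied as a lncRNA but annotated as protein-coding in GENCODE 44 and so not ranked, had 7.8 in T24 and 8 in T24R2. XACT peaks were called in T24 lists and in no T24R2 list, at 13.4 per library against 0. No member differed between the lines by the exact permutation test on peak numbers, where 13.9% of 13976 genes passed an unadjusted p of 0.05 and 0 passed after Benjamini-Hochberg adjustment.

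**Figure D1:**
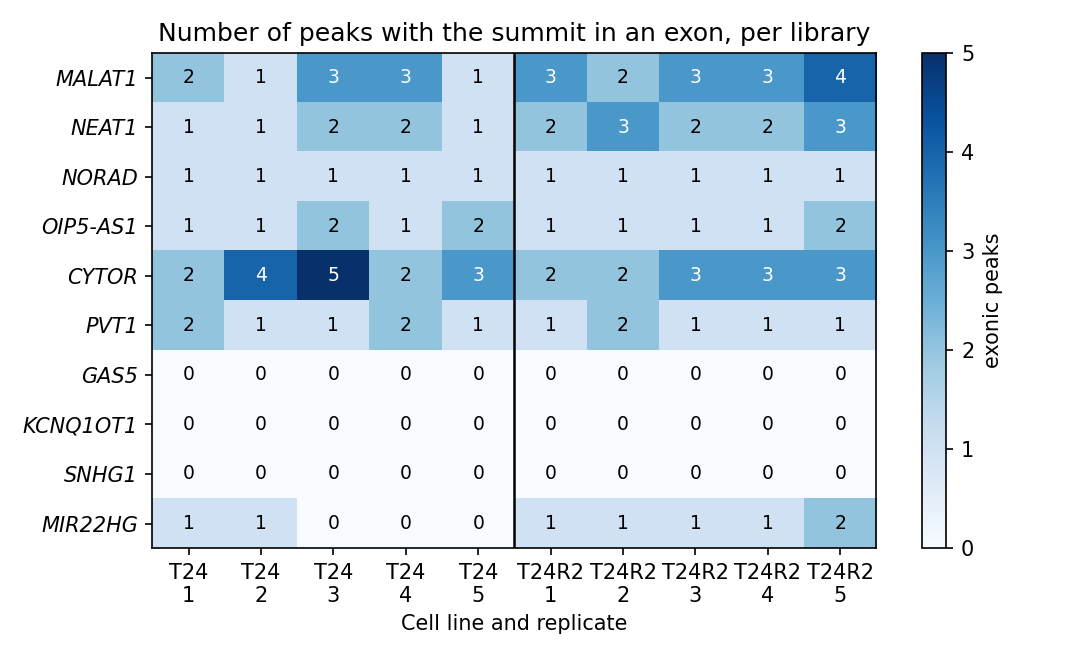
Number of peaks with the summit in an exon of each gene, in each of the 5 T24 and 5 T24R2 libraries. Values run from 0 to 5, the 6 genes with peaks in every library stand apart from GAS5, KCNQ1OT1 and SNHG1 at 0 throughout, and MIR22HG has peaks in 2 T24 and 5 T24R2 libraries.

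Most exonic peaks of the members lay in long exons. In 5 of the 7 genes with peaks the summits placed on a transcript lay in the 5′ part of the transcript used. The longest annotated exon at the summit had at least 1000 nt for 100 of 117 member peaks, 85.5%, beside 68.3% of 14871 peaks in other lncRNA genes and 65.2% of all exonic peaks. MALAT1, NEAT1 and NORAD each have a single-exon transcript of 5401 nt or more, so their peaks met this length by annotation. Sites that recur were counted once per library, so the share describes the genes chosen. NEAT1 summits covered 1.36% to 10.5% of a 22743-nt transcript, and all 19 also lay inside an annotated isoform of 3441 nt, so the peaks do not separate the short from the long isoform. MALAT1 summits lay at 15.2% to 51.7% of 10434 nt, NORAD summits at 10.6% to 19.1% of 5401 nt, and OIP5-AS1 summits at 7.48% to 21.0% of 8881 nt. In CYTOR the range was 4.59% to 25.9% of 7512 nt and in PVT1 2.05% to 25.7% of 2444 nt. These ranges hold for the transcript used only. All 13 OIP5-AS1 summits also lay inside an isoform of 1890 nt, and 12 of the 13 PVT1 summits inside one of 837 nt. Relative positions in such shorter isoforms were not computed. Outside the CYTOR and PVT1 transcripts used, and so without a position, were 4 of the 29 CYTOR summits (chr2:87627203-87627378) and 1 of the 13 PVT1 summits (chr8:128017035-128017122). In MALAT1 7 of the 25 summits lay near the middle, and MIR22HG summits lay at 52.5% to 72.1% of 2876 nt.

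**Figure D2:**
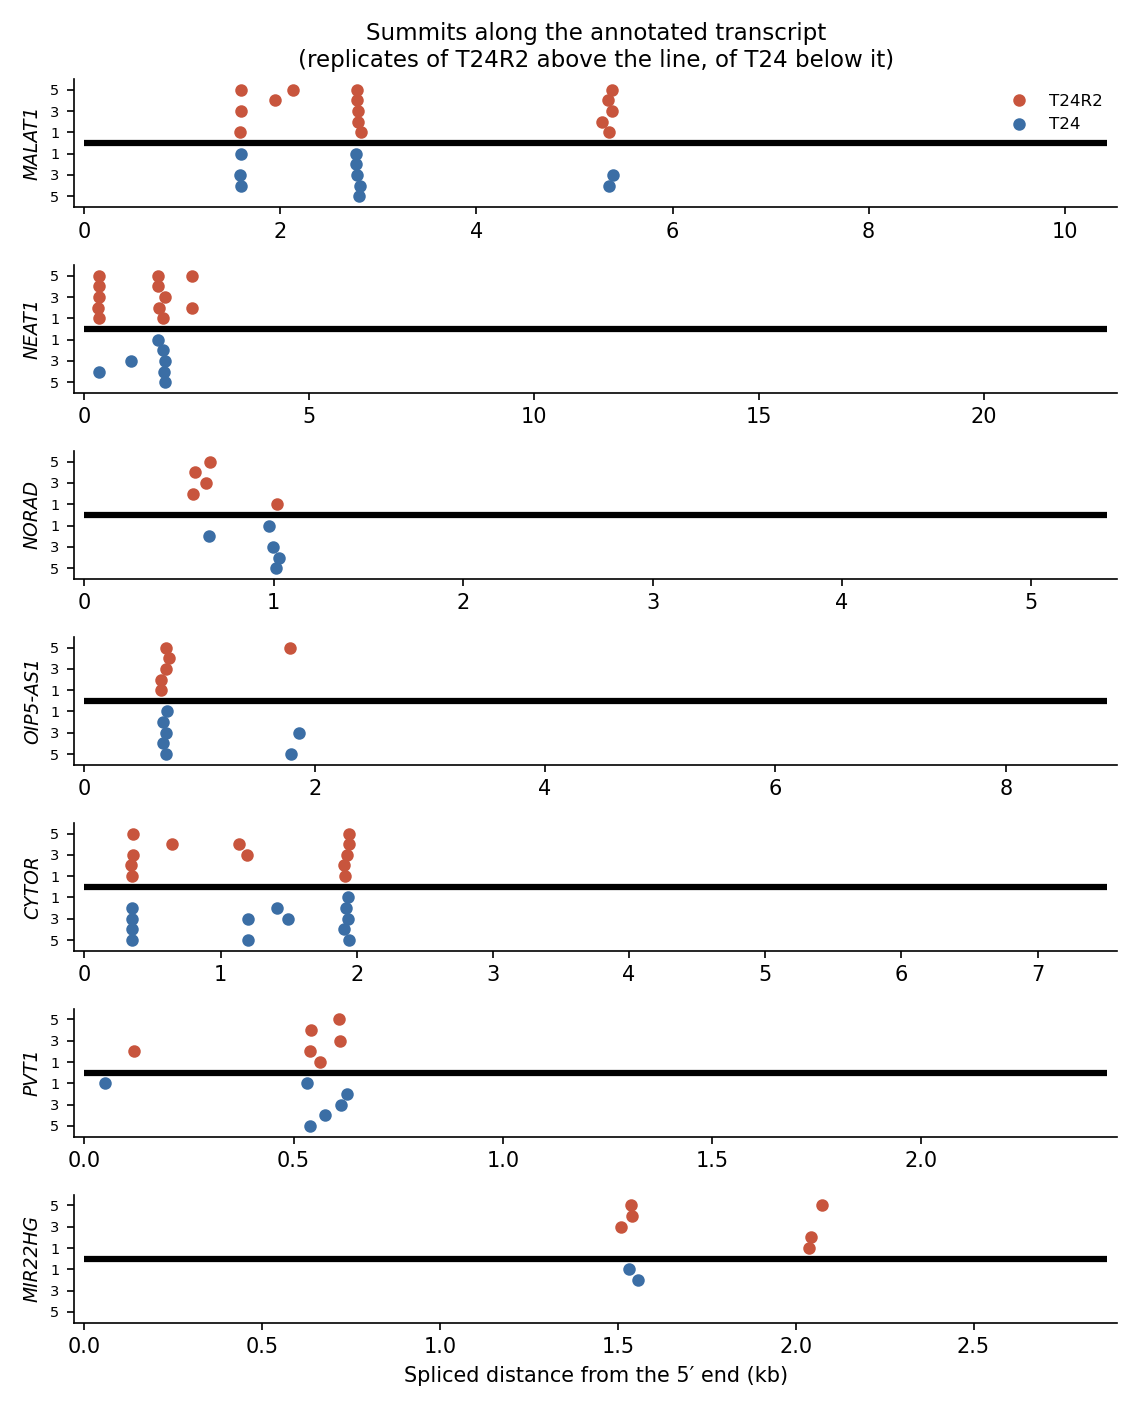
Spliced distance of each summit from the 5′ end of the annotated transcript that holds most summits of the gene, in kb, with the black bar as the whole transcript, T24R2 replicates 1 to 5 above it and T24 replicates 1 to 5 below it. Summits of different libraries stack at the same few positions, and no summit of NEAT1 lies beyond 2397 of 22743 nt.

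MALAT1 (ENSG00000251562.11, chr11:65497640-65508073, plus strand) is a single-exon transcript retained at nuclear speckles. Its summits lay at 5 sites, of which 3 recurred and 2 had a summit in 1 T24R2 library each. The site at 2766 to 2820 nt from the 5′ end had a summit in all 10 libraries, with a DRACH match near each. A site at 1583 to 1600 nt had summits in 3 libraries of each line. The site at 5282 to 5395 nt, in the region chr11:65502760-65503039, had summits in 2 T24 and 5 T24R2 libraries, and DRACH was near 1 of its 7 summits. On the opposite strand a match was near each of these summits, all of which also lay in an exon of the antisense gene TALAM1. Presence of a peak in that region did not pass Fisher's exact test (unadjusted two-sided p = 0.167). It passed when T24 replicate 3 or 4 was left out (Fisher's exact test, p = 0.0476). These are the T24 libraries with the peak, so this follows from the counts.

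In every list MALAT1 held weak peaks by fold enrichment, the ratio of pull-down over local input. The strongest MALAT1 peak had a fold of 1.82, 1.89, 2.31, 3.07 and 1.73 in T24 replicates 1 to 5, and of 3.27, 3.42, 2.29, 3.04 and 2.80 in T24R2 replicates 1 to 5. Ranked within the list, these were at the 0.173, 0.116, 0.715, 3.50 and 0.00484 percentile in T24, and at the 5.79, 3.78, 0.713, 3.05 and 1.91 percentile in T24R2. The groups overlapped, with T24 replicates 3 and 4 inside the T24R2 range. In T24 replicates 1 and 5 the lowest fold of the entire list, 1.58 and 1.73, belonged to a MALAT1 peak. In the other lists the lowest fold belonged to a peak in FTH1, AHNAK, ACTB, RPL4, CALR or PKM, so this place was not particular to MALAT1. Over the 10 libraries the mean percentile of the strongest peak was 1.98, which placed MALAT1 at rank 2 from the lowest among the 689 lncRNA genes and rank 4 among the 6360 genes with an exonic peak in every list. The median over the 689 lncRNA genes was 76.3. MALAT1 peaks stood higher by −log10 q, the confidence of the call, where the mean percentile was 44.5 and the rank 66 of 689.

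Between the lines the strongest MALAT1 peak was at 0.901 ± 1.48% in T24 and at 3.05 ± 1.92% in the resistant line (SD, n = 5 libraries a line), a difference that did not pass (exact permutation test, unadjusted p = 0.0794, adjusted p = 0.404). It passed without T24 replicate 4 or T24R2 replicate 3, at exact permutation p = 0.0238 and 0.0397. By −log10 q the values were 34.2, 13.0, 13.9, 61.9 and 1.25% in T24 and 64.8, 84.7, 43.98, 80.3 and 46.7% in T24R2. They overlapped through T24 replicate 4 alone, and the difference of 39.2 points passed unadjusted (exact permutation p = 0.0317) but not adjusted (p = 0.197). Of all genes tested this way, 17.0% passed with higher values in T24R2 and 3.43% with higher values in T24. The region chr11:65499082-65500877 passed by fold percentile, at 0.351 ± 0.352% in T24 and 2.13 ± 1.35% in T24R2 (exact permutation p = 0.0238, adjusted p = 0.263), beside 10.9% of 9577 regions higher in T24R2 and 3.04% higher in T24. Without T24 replicate 1, 2 or 5 it no longer passed, at p = 0.0556, 0.0556 and 0.0635 in this exact permutation test. Of the 25 MALAT1 summits, 19 also lay in an exon of the antisense gene TALAM1, and without strand their RNA cannot be told apart.

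NEAT1 (ENSG00000245532.11, chr11:65422774-65445540, plus strand), the architectural RNA of paraspeckles, had 1, 1, 2, 2 and 1 exonic peaks in T24 and 2, 3, 2, 2 and 3 in T24R2. The difference of 1 peak did not pass (exact permutation p = 0.0794), but did without T24 replicate 3 or 4 (p = 0.0317) and with lists of equal length, at 0.8 peaks (p = 0.0476). One site at 1627 to 1793 nt had a summit in all 10 libraries, each with a DRACH match nearby. At 309 to 329 nt, in the region chr11:65422778-65423197, a summit was called in T24 replicate 4 and in 5 of 5 T24R2 libraries. DRACH was near 2 of these 6 summits, and the printed window holds none. The fold there was 1.71 in T24 replicate 4 and 2.52, 3.36, 2.55, 2.68 and 2.32 in T24R2, at or below the 3.51 percentile of each list. Presence of this region differed at the threshold (two-sided Fisher's exact test, unadjusted p = 0.0476, adjusted p = 0.517), the only one of 15 member regions to do so, while 9.21% of all regions passed, 7.11% higher in T24R2. Each fold there was below 4, so the call ended when peaks needed a fold of at least 4.

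By the unadjusted tests the peaks of NEAT1 were stronger and wider in T24R2. The strongest NEAT1 peak had a fold of 2.16, 2.50, 3.11, 2.31 and 3.79 in T24 and of 3.99, 4.62, 3.25, 4.82 and 4.10 in T24R2. Within the list this was the 0.658, 1.52, 3.55, 0.686 and 9.97 percentile in T24 and the 12.5, 12.8, 5.60, 19.3 and 12.3 percentile in T24R2. The groups overlapped through T24 replicate 5, which lay above T24R2 replicate 3. Averaged over the 5 libraries of each line, the percentile rose from 3.28 ± 3.92 in T24 to 12.5 ± 4.85 in T24R2, by 9.22 points (exact permutation p = 0.0159, adjusted p = 0.216). Of 6360 genes 11.5% passed in this direction, 3.18% in the other and 0 after adjustment. With every list cut to the same number of peaks the difference was 3.59 points and no longer passed (exact permutation p = 0.0556).

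By −log10 q the strongest NEAT1 peak was at 27.4, 20.5, 42.0, 29.7 and 53.5% of the list in T24 and at 77.6, 86.3, 58.8, 84.6 and 71.5% in T24R2. Here the groups did not overlap, and the means of 34.6 ± 13.1% and 75.8 ± 11.1% differed by 41.1 points (exact permutation p = 0.00794, the smallest that 5 against 5 allows, adjusted p = 0.114). Of 6360 genes 17.0% passed unadjusted in this direction and 3.43% in the other. With lists of the same length the difference was 40.4 points (exact permutation p = 0.0159, adjusted p = 0.213), and 754 of 5285 genes passed unadjusted. Like MALAT1, NEAT1 was among the weakest lncRNAs by fold, at rank 3 of 689 from the lowest with a mean percentile of 7.89.

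**Figure D3:**
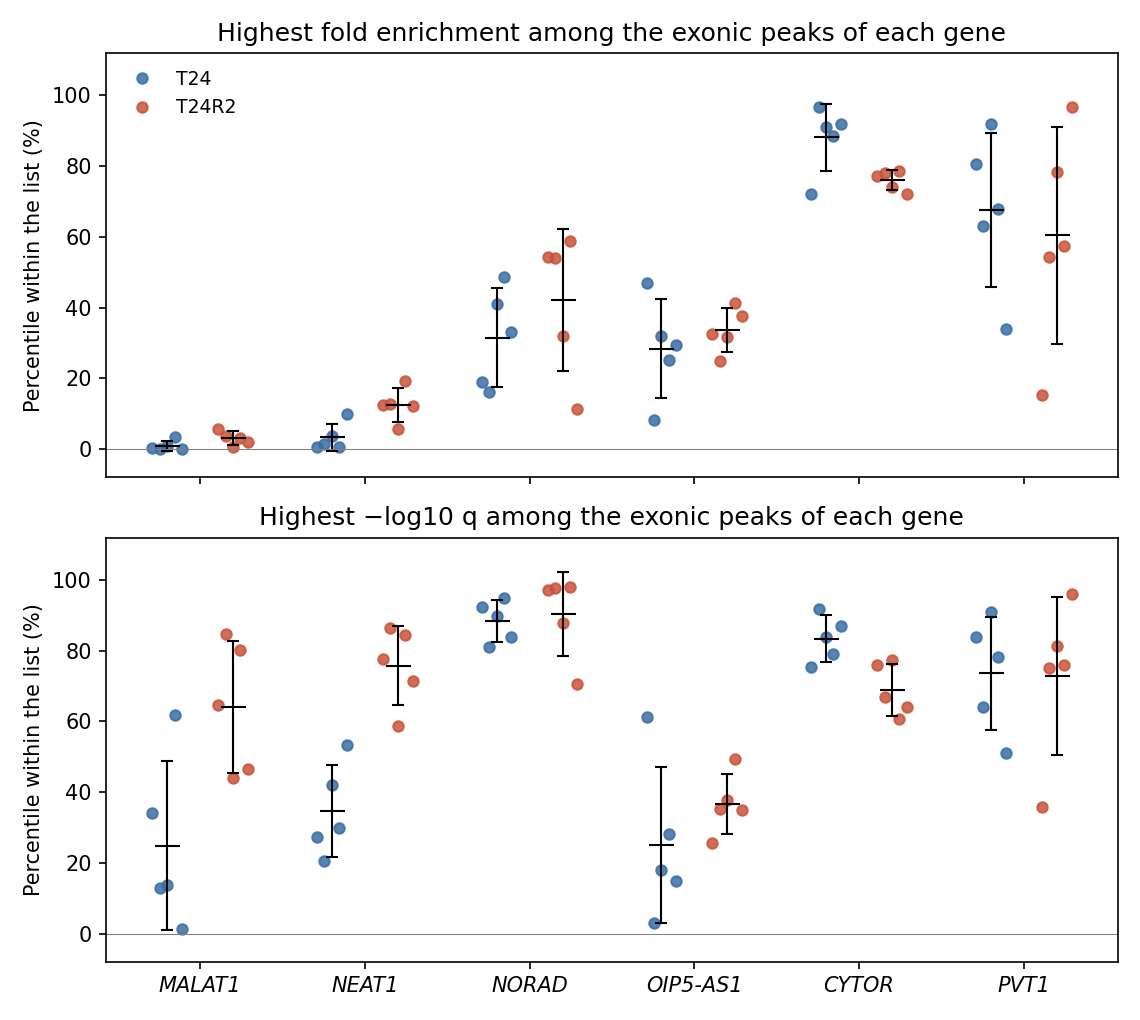
Percentile within each list of the highest fold enrichment (top) and of the highest −log10 q (bottom) among the exonic peaks of the 6 genes with a peak in every library. Points are libraries in order of replicate, and bars are means with SD over 5. MALAT1 and NEAT1 lie at or below 19.3% by fold, and the T24 and T24R2 values of NEAT1 do not overlap by −log10 q.

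The summed width of exonic peaks was added as a measure after the data had been seen. NEAT1 peaks covered 340, 357, 594, 931 and 441 nt in T24 and 1533, 1926, 1318, 1601 and 1708 nt in T24R2, with no overlap and a difference of 1085 nt (exact permutation p = 0.00794, adjusted p = 0.0483). Wider peaks in T24R2 were common: 30.7% of 13976 genes passed unadjusted in this direction, and 16.4% passed after adjustment in either. MALAT1 covered 552 ± 568 nt in T24 and 1607 ± 369 nt in T24R2 (exact permutation p = 0.0238, adjusted p = 0.0941), again with T24 replicate 4 inside the T24R2 range. MIR22HG covered 43.4 ± 63.2 and 198 ± 89.3 nt (exact permutation p = 0.0238, adjusted p = 0.0941), and the other 4 genes with peaks did not pass. With lists of the same length neither MALAT1 nor MIR22HG passed, at differences of 903 and 33.8 nt (exact permutation p = 0.0873 and 0.722). The adjusted call of NEAT1 was lost when any library other than T24R2 replicate 3 was left out, at adjusted p from 0.0542 to 0.0748. It was also lost with lists of the same length, at 0.0613, while the unadjusted exact permutation p of NEAT1 was 0.00794 in each. In each of these settings 0 of all genes passed adjustment, so the loss was not particular to NEAT1.

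**Figure D4:**
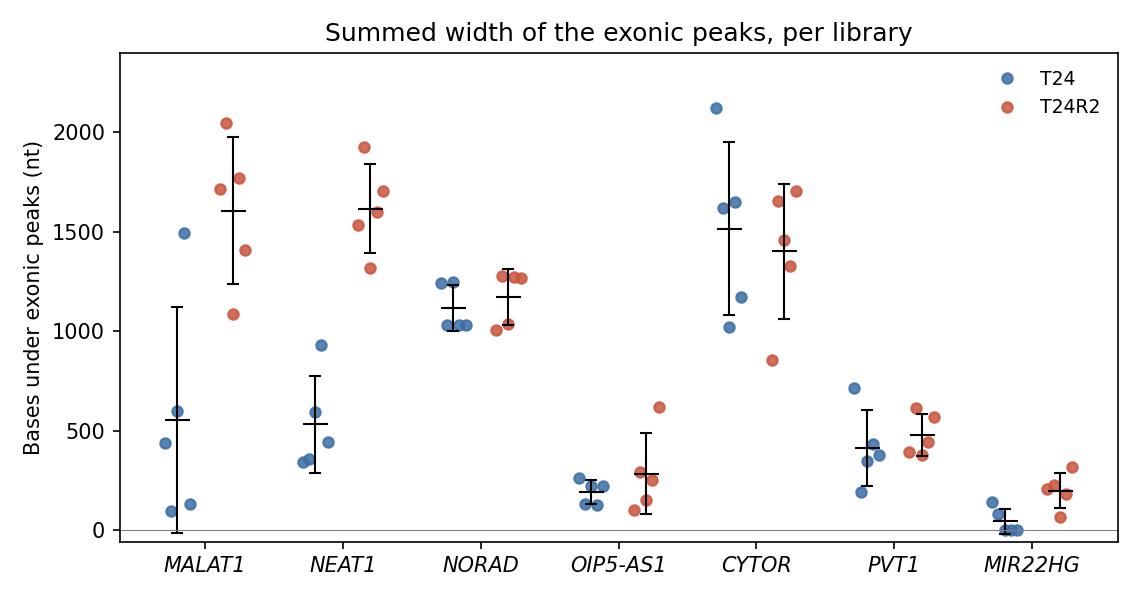
Summed width in nt of the exonic peaks of each gene with any peak, per library, with mean and SD over 5 libraries a line. The 5 T24R2 values of NEAT1 lie at 1318 nt or above and the 5 T24 values at 931 nt or below.

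NORAD (ENSG00000260032.2, chr20:36045618-36051018, minus strand) is the cytoplasmic decoy of PUMILIO proteins that guards chromosome stability. Every list held 1 NORAD peak, 1004 to 1280 nt wide, inside the region chr20:36049620-36050951. The peak ranked high by −log10 q, at 92.5, 81.0, 89.8, 95.0 and 84.0% of the list in T24 and 97.1, 97.8, 88.0, 98.1 and 70.5% in T24R2. By fold it ranked lower, at 18.99, 16.0, 40.9, 48.7 and 33.0% and at 54.4, 54.0, 31.9, 58.9 and 11.3%. Neither measure passed (exact permutation p = 0.778 and 0.357), and the lines overlapped in both. The summit moved within the same wide peak. It lay at 976 to 1029 nt in 4 T24 and 1 T24R2 libraries and at 575 to 663 nt in 1 T24 and 4 T24R2 libraries, which did not pass Fisher's exact test (two-sided p = 0.206).

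OIP5-AS1 (ENSG00000247556.7, chr15:41283958-41322392, plus strand, also known as cyrano), a conserved cytoplasmic RNA, had a summit at 664 to 732 nt in all 10 libraries, 281 nt or more into its last exon of 8499 nt. A further site at 1782 to 1862 nt was called in T24 replicates 3 and 5 and in T24R2 replicate 5. The strongest peak was at the 47.0, 8.07, 31.9, 25.3 and 29.4 percentile of fold in T24 and at the 32.4, 24.98, 31.8, 41.4 and 37.7 percentile in T24R2, with overlapping groups (exact permutation p = 0.476). By −log10 q OIP5-AS1 held rank 7 of the 689 lncRNA genes from the lowest, with a mean percentile of 30.8, below MALAT1 at 44.5 and NEAT1 at 55.2.

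CYTOR (ENSG00000222041.13, chr2:87454781-87636740, plus strand) had the highest mean fold percentile of the 6 members with a peak in every list, 82.1. All 25 summits in its 7234-nt exon lay within the region chr2:87583174-87585213. Most were at sites 345 to 361 nt from the 5′ end in 8 libraries, 1136 to 1202 nt in 4 and 1906 to 1944 nt in all 10. The remaining 3 were at 646 nt in 1 T24R2 library and at 1415 to 1499 nt in 2 T24 libraries. DRACH was near each summit. The strongest CYTOR peak was at 72.2, 96.8, 91.2, 88.4 and 92.0% of the list in T24 and at 77.3, 77.9, 74.0, 78.7 and 72.1% in T24R2. The highest 4 values were from T24, and T24 replicate 1 lay among the T24R2 values. The mean fell by 12.1 points from 88.1 ± 9.41% to 76.0 ± 2.83% (exact permutation p = 0.0397, adjusted p = 0.303). This was the opposite direction to that of NEAT1 and the less common one, 3.18% of genes. By −log10 q it was 83.4 ± 6.56% in T24 and 69.0 ± 7.35% in T24R2 (exact permutation p = 0.0238, adjusted p = 0.175), and with lists of the same length 79.9% and 52.8% (exact permutation p = 0.00794, adjusted p = 0.175).

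The CYTOR call by fold percentile depended on single libraries and on overlapping annotation. Leaving out T24 replicate 2, 3, 4 or 5, or T24R2 replicate 3 or 5, raised the exact permutation p to between 0.0556 and 0.0714. Of its 29 exonic summits, 8 also lay in an exon of NCAL1 on the same strand, and without these the difference was −2.90 points (exact permutation p = 0.651). CYTOR also has a near copy, MIR4435-2HG, on the same chromosome. Of all 50-nt stretches in CYTOR exons, 70.0% occur letter for letter in the MIR4435-2HG gene, and so do 100% of those within 50 nt of the 3 sites above. The authors kept uniquely mapped reads, so reads there could be lost or placed by few differing bases, and how peaks were divided between the copies was not tested.

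PVT1 (ENSG00000249859.14, chr8:127794526-128187101, plus strand) is the lncRNA beside MYC that is often co-amplified with it. All 10 libraries had a summit in its 410-nt exon at chr8:127890589-127890998, the third of 11 in the transcript used, 160 to 255 nt from the exon's start. This exon is also known as the source of a circular RNA, and a peak list cannot tell circular from linear transcripts. The strongest peak was at the 80.6, 63.0, 91.9, 67.9 and 34.1 percentile of fold in T24 and at the 15.2, 54.2, 78.3, 57.4 and 96.8 percentile in T24R2. The highest and the lowest value were both from T24R2, and the difference of −7.11 points did not pass (exact permutation p = 0.683) and was 4.18 points without T24R2 replicate 1. A further 22 PVT1 summits lay in introns, 13 from T24 and 9 from T24R2, and were not counted as exonic.

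Of GAS5, SNHG1 and MIR22HG, the spliced hosts of small RNAs named above, only MIR22HG (ENSG00000186594.16, chr17:1711447-1717174, minus strand) had exonic peaks. It carries the hairpin of miR-22, a microRNA studied as a tumour suppressor. Its peaks lay in the last exon of 2512 nt, 1033 nt or more downstream of the hairpin, which lies in the same exon. One region, chr17:1712763-1712942, was called in T24 replicates 1 and 2 and in T24R2 replicates 3, 4 and 5. The other, chr17:1712154-1712488, was called in T24R2 replicates 1, 2 and 5 and in no T24 library (two-sided Fisher's exact test, p = 0.167). Without T24R2 replicate 3 or 4, which lacked the peak, the same Fisher's exact test gave p = 0.0476. Together MIR22HG had 1, 1, 0, 0 and 0 peaks in T24 and 1, 1, 1, 1 and 2 in T24R2, a difference of 0.8 per library that did not pass (exact permutation p = 0.119). Without T24 replicate 1 or 2 it passed unadjusted (exact permutation p = 0.0397). With lists of the same length the MIR22HG difference was 0.2 per library and did not pass.

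GAS5 (chr1:173858559-173868882) and SNHG1 (chr11:62851978-62855953), snoRNA hosts whose spliced products are short-lived, had no peak overlapping an exon and no summit in an intron in any of the 10 lists. The same held for KCNQ1OT1 (chr11:2597308-2700003), the antisense RNA that silences genes of its imprinted cluster, although its exons span 92625 nt with 2292 DRACH matches. GAS5 exons had 93 matches and SNHG1 exons 75, so the motif was not missing. The nearest summit of any list was 1998 nt from GAS5, in ZBTB37, 16244 nt from SNHG1 and 183904 nt from KCNQ1OT1. With no read counts in the lists, no upper limit on methylation can be given for these genes.

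Lists of related lncRNAs were set beside these counts, though they too were chosen with earlier results of these data known. Of 25 other snoRNA hosts, 7 had an exonic peak and 4 had one in all 10 lists, against 14.8% of all lncRNA genes with any peak. By peak number SNHG5 and SNHG7 passed, at 0.6 against 2.6 and 0 against 1.2 peaks in T24 and T24R2 (exact permutation p = 0.0238 and 0.00794). Of 12 miRNA hosts, 5 had an exonic peak, and MIR193BHG passed with more peaks in T24R2 and MIR205HG with more in T24. Of 32 other genes in the annotation that are studied as lncRNAs in cancer, TUG1 among them, 18 had an exonic peak. UCA1, HOTTIP and LINC-PINT passed with more peaks in T24, and MIAT with more in T24R2. Among genes with a peak, the calls were 2 of 7 snoRNA hosts, 2 of 5 miRNA hosts and 4 of the 18 others. They stand beside 13.9% of all genes with a peak, 1455 higher in T24R2 and 493 higher in T24. The strongest LINC-PINT peak went the other way, from the 78.6 percentile of fold in T24 to the 92.6 in T24R2 (exact permutation p = 0.00794). By this percentile SNHG8, MIR100HG and PCAT1 also passed with higher values in T24R2, and SNHG14 with higher values in T24. Of 6360 genes 11.5% passed higher in T24R2 and 3.18% higher in T24. None of these passed adjustment, and the median difference in peak number was 0 for the members and 0.2 for all genes.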

How the data were processed

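MeRIP-seq pull-down libraries of 5 T24 and 5 T24R2 samples were analysed as peak lists. Per the study's methods and the submitters' processing notes, the authors aligned reads to hg38 with STAR 2.7.0, kept uniquely mapped reads without duplicates (SAMtools 1.10) and called peaks of pull-down over input per library with MACS2 (3.0.0a6). The deposited fold enrichment is a ratio of pull-down over local background, the deposited −log10 p and −log10 q give the confidence of a peak, and the deposited score restates q. The lowest −log10 q was 2.00.

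Summits were placed in exons of GENCODE 44, and 1793 peaks on contigs outside the reference were not assigned. The deposited merged regions equalled the merge of the 10 lists. Fold and −log10 q were ranked as percentiles within each list. Two-sided exact permutation tests over 252 assignments (peak numbers, percentiles) and Fisher's exact tests (region presence, overlap of at least 1 bp) were run on all genes or regions, with Benjamini-Hochberg adjustment, and a gene or region passed at an unadjusted p under 0.05. Positions refer to the annotated transcript holding most summits of a gene. Tests were checked on simulated data. The members and lists were chosen with earlier results of these data known. Named genes were the members, the 5 other lncRNA genes with most exonic peaks (XIST left out) and members of the lists. A rule to name genes of similar pattern applied only to members whose peak number passed, and named none. Alternatives covered peak thresholds, list length, exon sets, shared summits, overlap, strength measure, pairing and single libraries. Python 3.11.15, numpy 2.4.6, scipy 1.17.1, pandas 2.3.3 and matplotlib 3.10.9 were used.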

Additional observations from a re-analysis of the deposited data

Results flagged for a closer look

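Within a line of 5 libraries, 4 values stood apart from the others by the gap between an extreme value and its neighbour (Dixon's ratio above 0.71), a criterion that chance meets in about 1 of 20 groups. There were 25 groups tested. The strongest MALAT1 peak of T24 replicate 4 was at the 3.50 percentile of fold, with a gap of 0.797 of the range, and without this library the MALAT1 difference between the lines was 2.80 points (exact permutation p = 0.0238). The remaining 3 are numbers of peaks of 2 where the other 4 libraries had 1: OIP5-AS1 and MIR22HG in T24R2 replicate 5, the longest list, and PVT1 in T24R2 replicate 2. Among values this small a single further peak is enough to meet the criterion.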

How the results depend on the processing

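Depth is unknown, the lists have no strand, and a peak list depends on its caller and on list length. Of 88 recomputed summary values 55 stayed within 1.5 times the value reported, or within its spread for the DRACH share, and 33 did not, 14 of them from leaving out a library. Among the differences of single genes, 4 turned in direction, none past the threshold in either fit: OIP5-AS1 peak number from −0.2 to 0.8 and 0.2 at −log10 q of at least 5 and 10 and to 0.4 at fold of at least 4, and the PVT1 fold percentile from −7.11 to 4.18 points without T24R2 replicate 1 (−16.2 to 4.18 with each library left out). Member regions differing in presence numbered 1, and 0 at a fold of at least 4, 3 when peaks had to cover 50% of the region, and 1 to 2 with each library left out. Members differing in peak number were 0, and 1 at −log10 q of at least 5 or 10 or with lists cut to 1 length (NEAT1). By bases under peaks they were 3 (NEAT1, MALAT1 and MIR22HG), with the shares over all genes given above. With each library left out they were 0 to 1 by peak number. Members differing in strongest fold percentile were 2, and 1 at −log10 q of at least 10, at fold of at least 4, with lists cut to 1 length, with canonical exons or without shared summits, and 1 to 2 with each library left out. Member regions differing in fold percentile were 3 of 6 tested, in NEAT1, MALAT1 and CYTOR, beside 1332 of 9577 regions, and 0 passed adjustment. The NEAT1 region repeats the gene value of 9.22 points, and the CYTOR region differed by −14.4 points (exact permutation p = 0.0397, adjusted p = 0.315). These regions numbered 1 at −log10 q of at least 10, at fold of at least 4 or with lists cut to 1 length, and 1 to 3 with each library left out. These counts at altered settings are given without shares over all genes or regions, so a changed count has no background to compare with. Except where fewer peaks or samples entered, the cause of the changes was not tested. The DRACH share of 90.2% became 69.7% within 25 nt and 29.1% for GGAC, and 89.1% to 91.1% with each library left out.

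With the replicate numbers taken as pairs (replicate block) the 4 counts were 0, as 5 pairs allow no exact p below 0.0625. Same-numbered libraries correlated at −0.0304 to 0.111, and 1 of 5 correlated best with its own number, so the numbers were not taken as pairs.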
